A study of Caenorhabditis elegans with 2 samples.

Results

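The peaks described here are the weaker but reproducible ChIP-seq peaks of GFP-tagged DVE-1 that lay in introns and between genes of the C. elegans autosomes. They numbered 2262 of the 30000 peaks in the pooled list, which the authors called on the combined reads. The members were selected on the authors' own signal and on their recurrence in the replicates, in 3 steps. The pooled list was ranked by signal, the strongest first, and autosomal peaks ranked below those of the authors' thresholded list, whose entries were all identical to the strongest pooled peaks, were taken. A peak was kept when its interval overlapped, by 1 bp or more, a peak in each replicate list. Its summit, the position the authors give for the peak's highest point, then had to lie outside every annotated exon and outside promoter windows, which spanned 1000 bp before and 200 bp after the 5′ ends of protein-coding genes. Of the 2262 members, 1296 lay in introns and 966 between genes. Because the rule used signal, replicate overlap and distance from exons and promoters, those values are given as a description only.

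All samples were late embryonic hermaphrodites of strain OP398 (unc-119(tm4063) III; wgIs398), whole organisms that carry a dve-1 transgene whose product ends in a GFP-FLAG tag, in an unc-119 mutant background. Sonicated chromatin was immunoprecipitated through the GFP tag, and the only group had 2 biological replicates. Age is given as unknown, untagged worms were not analysed here, and whole embryos do not show which cells a peak comes from. Sequencing depth is unknown, since the peak lists hold no totals.

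DVE-1 is a homeodomain protein related to the SATB proteins of vertebrates, and it acts in the mitochondrial unfolded protein response, in which misfolded protein in mitochondria leads to induction of nuclear genes for chaperones and proteases. In that response it gathers in nuclei together with the ubiquitin-like protein UBL-5. Worm autosomes have central regions that are dense in conserved genes and arms that are rich in repeats, including stretches of the telomere unit TTAGGC far inside the chromosome. Introns of worm genes are mostly short, and the few long introns often hold regulatory elements.

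The sequences below are 121 bases centred on the summits of 7 members, read from the plus strand of ce11 and credited to RefSeq. They show the kinds of sequence under these peaks, and each was chosen among members on chromosomes II to V. The first 2 are the highest-ranked members with telomere units, in an intron and between genes. The next 2 are the highest-ranked with a GA or TC run of at least 16 bp near the summit. The fifth is the highest-ranked member of the chromosome centres with TTATCA near the summit, 2 tandem telomere units absent and GAGAGA absent from its wider window. The last 2 are the strongest members in vhp-1 and hlh-30, the 2 genes with the most members. Capitals mark each match, on either strand, to the telomere unit TTAGGC, the GA hexamer GAGAGA or the GATA core TTATCA.
Y46E12A.3 intron peak, chrIII:1753349-1753469: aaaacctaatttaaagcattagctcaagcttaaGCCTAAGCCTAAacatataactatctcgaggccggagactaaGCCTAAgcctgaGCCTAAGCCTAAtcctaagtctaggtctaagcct
intergenic telomere-like peak, chrII:1090381-1090501: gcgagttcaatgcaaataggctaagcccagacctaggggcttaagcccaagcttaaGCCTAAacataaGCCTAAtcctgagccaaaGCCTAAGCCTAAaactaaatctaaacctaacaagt
spat-2 intron peak, chrIII:11050876-11050996: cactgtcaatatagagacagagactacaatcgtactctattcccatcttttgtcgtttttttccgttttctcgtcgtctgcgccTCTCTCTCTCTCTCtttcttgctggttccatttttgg
intergenic GA-run peak, chrIV:1377929-1378049: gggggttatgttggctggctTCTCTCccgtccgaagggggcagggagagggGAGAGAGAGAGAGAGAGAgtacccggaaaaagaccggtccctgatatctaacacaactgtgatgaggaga
intergenic chromosome-centre peak, chrII:6026801-6026921: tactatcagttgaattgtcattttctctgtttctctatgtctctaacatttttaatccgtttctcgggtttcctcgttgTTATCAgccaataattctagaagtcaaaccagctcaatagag
vhp-1 intron peak, chrII:5326295-5326415: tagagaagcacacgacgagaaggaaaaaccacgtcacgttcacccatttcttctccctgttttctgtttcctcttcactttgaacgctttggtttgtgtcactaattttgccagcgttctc
hlh-30 intron peak, chrIV:4031472-4031592: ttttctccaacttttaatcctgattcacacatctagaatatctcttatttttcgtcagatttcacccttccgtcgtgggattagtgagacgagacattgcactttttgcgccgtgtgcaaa
The Y46E12A.3 peak had 5 telomere units in these 121 bases, most of them in pairs, and the intergenic telomere-like peak had 4. The alternating runs of the spat-2 and intergenic GA-run peaks, counted with a partial unit at either end, were 16 and 19 bp long. The vhp-1 and hlh-30 sequences held no match to any of these 3 motifs.

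The pooled signals of the members ran from 19.1 to 78.8, with a median of 41.7. The members just inside the limit were at 78.8 in an intron of K04B12.2 (rank 1450), at 78.7 in an intron of Y46E12A.3 (rank 1452) and at 78.7 between srh-16 and frm-7 (rank 1453). The nearest peaks on the other side that met the remaining criteria had 79.0 (rank 1445), 79.2 (rank 1436) and 79.4 (rank 1433). The weakest member, between sgn-1 and F07H5.13 on chromosome II, had a signal of 19.1 and rank 29979. The limit thus fell within a run of nearly equal signals. All but 1 member were 364 bp wide.

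Of 23525 autosomal pooled peaks below the limit, 4960 (21.1%) overlapped a peak of both replicates. Of these 4960 peaks, 1909 had their summit in a promoter window and 789 in an exon outside such windows, which left the 2262 members. The members were 19.1% of the 11824 weaker peaks in introns and between genes. The other 9562 peaks of that kind, not found in both replicates, serve below as one comparison. Further comparisons are with the 520 strong autosomal peaks of introns and intergenic sequence found in both replicates and with the 1909 weaker promoter-window peaks.

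Reproducibility declined steeply down the ranks. Among weaker intron and intergenic peaks of ranks up to 3000, 492 of 534 (92.1%, 95% interval 89.5 to 94.3) overlapped a peak of both replicates. The share was 77.4% at ranks between 3000 and 5000, 38.0% at ranks between 5000 and 10000, 9.69% at ranks between 10000 and 15000 and 3.01% at ranks between 25000 and 30000. Of the members, 1065 had a rank up to 5000 and 1197 a rank above it. Many of the weakest members were neighbours of a stronger peak rather than separate sites: the intervals of 407 members (18.0%) overlapped that of a higher-ranked pooled peak. That share was 3.66% at ranks up to 3000, and it reached 65.6% (296 of 451) at ranks above 10000. Without peaks that overlap a stronger one, 1855 members remained, and the reproducible share at ranks between 25000 and 30000 was 0.460% (9 of 1955 peaks). Merging overlapping members left 2009 separate regions, and 472 members shared their strongest overlapping peak of both replicates with another member.

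**Figure D1:**
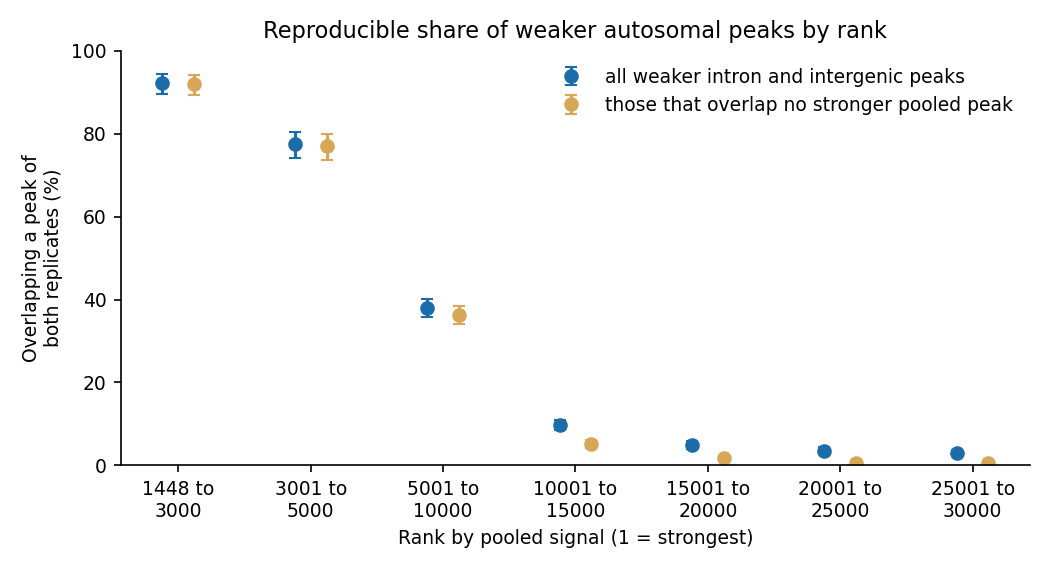
Share of weaker autosomal intron and intergenic peaks that overlap a peak of both replicates (vertical axis, percent) in 7 bins of rank by pooled signal (horizontal axis), for all such peaks (blue) and for those that overlap no higher-ranked pooled peak (ochre), with exact 95% intervals. The share was 92.1% in the first bin, and in the last bin 3.01% for all peaks and 0.460% for peaks that stood alone.

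A member's replicate signal and rank are those of the strongest replicate peak that its interval overlapped, which can be the peak of a stronger neighbour. Read in this way, the members had a median signal of 20.9 in replicate 1 and 24.7 in replicate 2. By these ranks, only 163 members lay within as many strongest peaks of replicate 1 as the thresholded list holds and 144 within those of replicate 2. Intervals of 89 members overlapped a peak of the thresholded list, and how many of them are in these counts is not given here. The summits of the overlapping replicate peaks were close, with a median distance of 24.5 bp in replicate 1 and 18.0 bp in replicate 2. The signals of the 2 replicates were related across members with a Spearman correlation of 0.376 over 2262 peaks, against 0.599 over the 520 strong peaks. Both values describe peaks of the same libraries, and the narrower range of signals among the members bears on the first. The way replicate signals were assigned bears on it too. Of the members, 472 shared their strongest overlapping peak of both replicates with another member, so the 2262 pairs of values are partly repeated.

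The members were spread over all 5 autosomes and were densest in the chromosome centres. There were 482 on chromosome I, 468 on II, 473 on III, 418 on IV and 421 on V. Relative to the autosomal sequence outside exons and promoter windows (42.4 Mb), this was 59.7, 62.7, 63.9, 43.1 and 43.1 members per Mb. Over the autosomes, the centres, defined as the middle 33.3% of each chromosome, had 64.8 members per Mb (95% Poisson interval 60.3 to 69.4), the left arms 51.0 (47.4 to 54.7) and the right arms 46.5 (43.1 to 50.1). The centre had the highest density on each of the 5 chromosomes, though on IV it barely exceeded the left arm (49.9 against 49.6 per Mb), and on I, III and IV the interval of the centre overlapped that of the denser arm. On V the contrast was wider, with 56.7 per Mb in the centre, 40.6 on the left and 33.8 on the right.

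In all, 791 of 2262 members (34.97%, 95% interval 33.0 to 37.0) lay in a centre, which holds 28.8% of the sequence open to them. The strong peaks of the same kind of sequence were placed the other way, with 102 of 520 (19.6%) in the centre. The odds of a central position were 2.20 times as high for members as for strong peaks (95% interval 1.74 to 2.81, Fisher's exact test, adjusted p = 8.59e-12 over 8 tests). Without the telomere-like peaks described next, which lay in the arms, this odds ratio was 1.38 (Fisher's exact test, adjusted p = 0.0167). Members were central less often than weaker promoter-window peaks, of which 41.4% lay there (odds ratio 0.762, Fisher's exact test, adjusted p = 3.12e-05). They were central more often than the peaks not found in both replicates, at 29.4% (odds ratio 1.29, Fisher's exact test, adjusted p = 4.93e-07). The peaks not found in both replicates were far weaker, with a median rank of 18442.5 against 5275.5 for members, and for peaks of ranks up to 5000 the odds ratio was 1.13 (Fisher's exact test, adjusted p = 0.634). Neighbouring peaks are not independent, so these p-values are too small to an unknown degree.

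**Figure D2:**
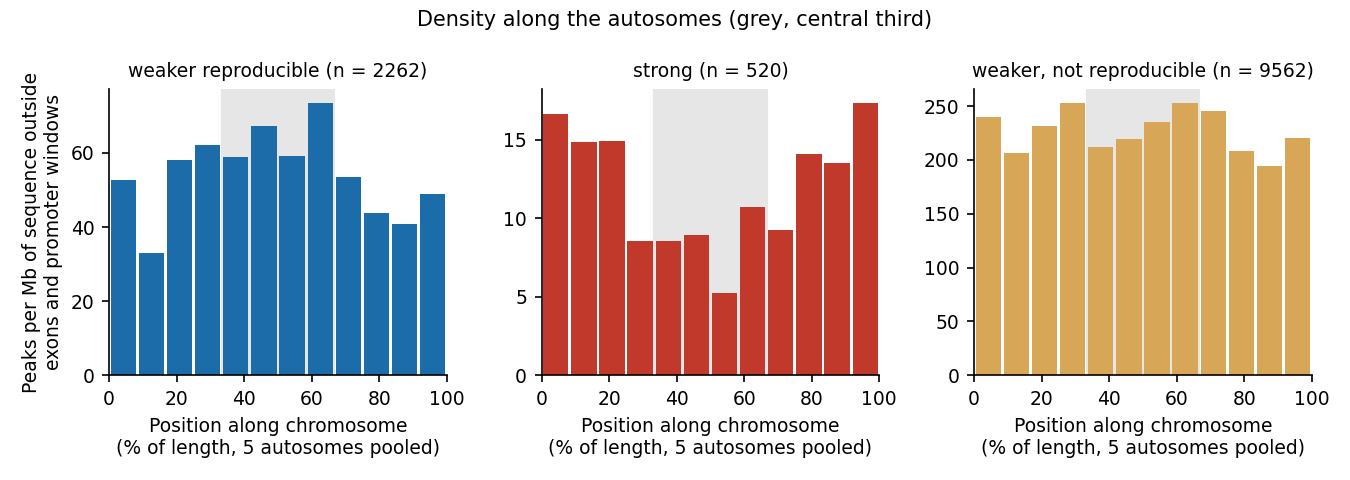
Peaks per Mb of autosomal sequence outside exons and promoter windows (vertical axes, with separate scales), in 12 bins of relative position along 5 pooled autosomes (horizontal axes), for the 2262 weaker reproducible peaks, the 520 strong peaks and the 9562 weaker peaks not found in both replicates. Among weaker reproducible peaks the highest bin, at 73.6 per Mb, lay in the grey centre, and among strong peaks the highest, at 17.4 per Mb, was a chromosome end.

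Members lay in repeats less often than the sequence open to them. Repeat content was read as the share of the summit window, the 100 bp to each side of the summit, that is soft-masked in the reference, a mark for repeats and low-complexity sequence. At least 50% of the window was masked in 442 members (19.5%, 95% interval 17.9 to 21.2), against 48.4% of all 171683 windows of this length laid over the open sequence. Masking was unevenly placed, with 26.5% of members in the arms and 6.57% of those in the centres past that mark. The open windows are not split in this way here. Members were richer in G and C than the open sequence, with medians of 38.6% and 32.8%. Among windows of 35 to 40% GC, 15.2% of members and 31.1% of all windows were at least 50% masked.

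A second measure counted bases covered by 24-mers that occur more than once in the genome. Such bases filled at least 50% of the window in 146 members (6.45%), against 24.6% of open windows, and 72.4% of members had no such base. The strong peaks differed, with 31.7% at least 50% multi-copy. By masking, too, the share was lower among members (19.5%) than among strong peaks (38.3%), with an odds ratio of 0.392 (95% interval 0.318 to 0.484, Fisher's exact test, adjusted p = 1.05e-17). This direction rested on telomere-like peaks: without windows with 2 tandem telomere units in either class, 14.3% of members and 9.31% of strong peaks were at least 50% masked, an odds ratio of 1.63 (Fisher's exact test, adjusted p = 0.0167). Against weaker promoter-window peaks, at 16.9%, the odds ratio was 1.197 (Fisher's exact test, adjusted p = 0.031), and without telomere-like windows it was 0.875 (Fisher's exact test, adjusted p = 0.15). Against peaks not found in both replicates, at 33.5%, it was 0.482 (Fisher's exact test, adjusted p = 8.09e-40). That difference lay at low signal: at ranks between 5000 and 10000 the shares were 21.0% of members and 20.5% of the others, and at ranks above 10000 they were 23.1% and 35.9%. Among peaks of ranks up to 5000 the odds ratio was 0.984 (Fisher's exact test, adjusted p = 0.92).

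Members with telomere-like sequence lay outside the chromosome centres. A tandem pair of TTAGGC units on either strand, written here as 1 motif of 12 letters, occurred within 100 bp of the summit in 173 members (7.65%, 95% interval 6.59 to 8.82), against 0.531% of open windows. It occurred in 36.0% of strong peaks, 1.68% of weaker promoter-window peaks and 1.43% of the peaks not found in both replicates. At like rank the last contrast was turned or small: 14.6% of members and 21.4% of the 42 peaks not found in both replicates at ranks up to 3000, 9.08% and 7.78% from there to 5000, and 4.16% and 3.04% to 10000. Above 10000 the shares were 3.99% and 0.959%. None of the 173 lay in a centre, where there were 791 members in all. How open windows with such units divide between centres and arms is not given here. The placement of these members therefore cannot be told apart from that of the units in the genome. The 173 members numbered 48 on chromosome II, 48 on V, 35 on I, 22 on III and 20 on IV. The innermost on a left arm lay at 31.9% of the length of chromosome III, and the innermost on a right arm at 69.0% of chromosome I. They were internal rather than terminal on the whole, with a median distance to the nearer chromosome end of 1.17 Mb on I and 2.61 Mb on II, although the nearest lay 0.203 kb from an end on II and 0.137 kb on III.

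The telomere-like members held between 3 and 17 units in their summit windows, with a median of 8. The other members had a median of 0 but held up to 11, because only a tandem pair counted as telomere-like. Their pooled signals had a median of 52.7, against 41.0 for the other 2089 members. The replicates gave medians of 23.5 and 32.9 for telomere-like members and 20.7 and 24.2 for the others, in the order replicate 1 and replicate 2. Introns held 117 of them (67.6%), against 56.4% of the other members. Of telomere-like members, 48.6% had a window at least 50% multi-copy, against 2.97% of the others, and the way reads from such sequence were placed is not given in the sources used here.

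Among 8 motifs searched on both strands in the same summit windows, GAGAGA was the commonest relative to the open sequence after the telomere units. It occurred in 634 members (28.0%, 95% interval 26.2 to 29.9), in 9.26% of open windows and in 13.5% of peaks not found in both replicates. The last contrast was not seen at all ranks. GAGAGA occurred in 42.1% of members and 52.4% of the 42 peaks not found in both replicates at ranks up to 3000, in 28.8% and 24.0% (of 167) at the ranks from there to 5000, in 22.4% and 19.7% to 10000, and in 21.1% and 12.2% above 10000. Strong peaks had it in 35.4% and weaker promoter-window peaks in 26.6%. At 35 to 40% GC the shares were 25.4% of members and 12.1% of windows. The contrast varied with GC: 13.2% and 4.32% below 30% GC, and only 10.9% and 8.18% at 30 to 35%. At 40 to 45% GC the shares were 35.9% and 16.1%, and from 45% they were 46.0% and 19.6%. The nearest match lay a median of 36.0 bp from the summit, and 403 of the 634 (63.6%) had one within 50 bp. Runs were mostly short, with a median of 7.0 bp, but 48 members had one of at least 16 bp and the longest was 48 bp. Only 5 members held both GAGAGA and tandem telomere units.

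TTATCA, whose other strand reads TGATAA, is the core that worm GATA factors recognise. It occurred in 508 members (22.5%, 95% interval 20.8 to 24.2), 16.2% of open windows and 18.4% of the peaks not found in both replicates. At like rank the last contrast was small: 22.2% and 21.4% at ranks up to 3000, 23.4% and 22.8% to 5000, and 23.7% and 20.8% to 10000. Above 10000 the shares were 19.5% and 17.9%. The share of TTATCA in strong peaks was 7.31% and in weaker promoter-window peaks 22.7%. Shares at like GC are not given for it. TAATTA, a core that many homeodomains bind, was less common in members (6.23%) than in open windows (9.99%), but at 35 to 40% GC the shares were 6.20% and 6.80%. CACCTG occurred in 5.17% of members (95% interval 4.30 to 6.17), 3.82% of open windows and 5.20% of the peaks not found in both replicates. The shares of members and windows were 6.72% and 5.75% for TGACGT, 31.5% and 33.5% for CCAAT, and 3.40% and 2.82% for CACGTG. A match is a string of letters and not a shown site of binding.

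**Figure D3:**
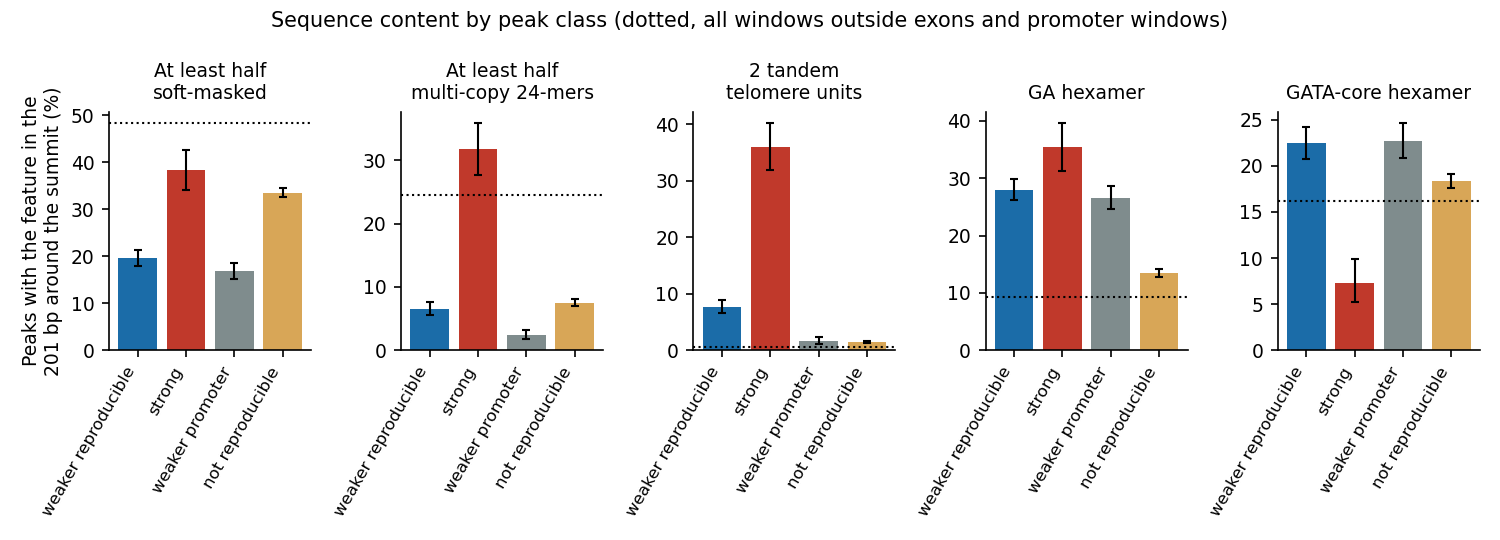
Percent of peaks (vertical axes, separate scales) whose summit window is at least 50% soft-masked, at least 50% covered by multi-copy 24-mers, or holds 2 tandem telomere units, the GA hexamer or the GATA-core hexamer, for weaker reproducible, strong, weaker promoter-window and not reproducible peaks, with exact 95% intervals. Dotted lines give the share of all windows outside exons and promoter windows, and weaker reproducible peaks lay below that line for masking (19.5% against 48.4%) and above it for the GA hexamer (28.0% against 9.26%).

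Members in introns made up 57.3% (95% interval 55.2 to 59.3), while 61.2% of the open bases and 56.6% of the open windows lie in introns, so that whether the share was below that of the open sequence depended on how that sequence was counted. The share did not differ detectably from that of strong peaks, 58.8% (odds ratio 0.938, 95% interval 0.769 to 1.14, Fisher's exact test, adjusted p = 0.523). It was lower than among peaks not found in both replicates, at 62.2% (odds ratio 0.814, Fisher's exact test, adjusted p = 2.76e-05). That call was lost at ranks up to 5000 (odds ratio 0.837, Fisher's exact test, adjusted p = 0.449) and with the wider promoter window (0.917, adjusted p = 0.145). Of the members, 259 (11.5%) lay in the promoter-sized window of an annotated transcript that starts inside its gene, against 6.52% of the open bases, so that a share of the intron members lay near internal 5′ ends. Long introns held more members per length. Introns of under 500 bp had 40.4 members per Mb, those of 2000 to 5000 bp had 70.0 and those of 5000 bp or more had 89.1. The first intron of a gene held 27.9% of the members in protein-coding introns (95% interval 25.5 to 30.5), against 20.9% of the open intron sequence.

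In all, 873 genes hosted a member, namely 849 protein-coding genes, 16 pseudogenes, 7 lincRNA genes and 1 other ncRNA gene. The protein-coding hosts were 5.64% of the 15056 autosomal protein-coding genes with open intron sequence. Of the 873 hosts, 636 had 1 member, 138 had 2 and 99 had 3 or more, and 28 of these had at least 5. Hosting followed gene structure closely. It was 0.709% among genes with under 500 bp of open intron sequence, 3.77% at 500 to 2000 bp, 11.0% at 2000 to 5000 bp, 24.4% at 5000 to 10000 bp and 43.9% (166 of 378 genes) at 10000 bp or more. The density also went up, with 34.8 members per Mb in the first of these classes and 65.3 in the last. A summit of the thresholded list lay in the promoter window of 53 of the 849 hosts (6.24%, 95% interval 4.71 to 8.09), against 3.85% of the other genes (3.54 to 4.18). With under 2000 bp of open intron sequence the shares were 5.81% of 258 hosts (3.29 to 9.41) and 3.79% of other genes (3.45 to 4.15). At 2000 to 10000 bp they were 7.53% of 425 hosts (5.21 to 10.5) and 3.95% of other genes (3.22 to 4.79). Among genes of 10000 bp or more the order was turned, with 6 of 166 hosts (3.61%) and 13 of 212 other genes (6.13%), and those intervals overlap.

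**Figure D4:**
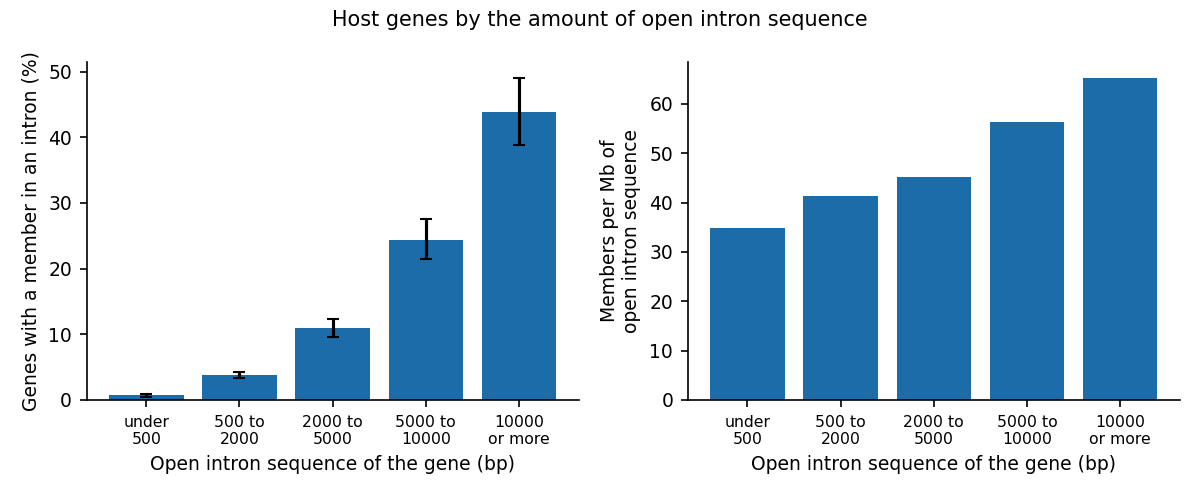
Left, percent of autosomal protein-coding genes with a member in an intron, with exact 95% intervals; right, members per Mb of open intron sequence; both by the amount of open intron sequence of the gene in bp (horizontal axes). Hosting was 0.709% in genes with the least open intron sequence and 43.9% in genes with the most.

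The genes with the most members were vhp-1 on chromosome II, which encodes a phosphatase of MAP kinases, and hlh-30 on IV, which encodes the worm counterpart of the lysosome and autophagy regulator TFEB, with 10 each. In vhp-1 (chrII:5323276-5340829, plus strand) the 10 pooled signals were 67.01, 66.5, 65.3, 59.97, 46.5, 41.1, 38.1, 36.1, 30.7 and 20.6. They lay in introns 1, 2 and 5 of 7, and 7 of the 10 overlapped no stronger pooled peak. The strongest had a signal of 20.3 in replicate 1 and 46.3 in replicate 2, and the next 27.1 and 35.8. No summit of the thresholded list lay within the gene or 1000 bp of it, while 13 other pooled peaks did, so the gene carried many moderate peaks and no high one. Within vhp-1 8 members fell inside 10000 bp, the densest such group on the autosomes.

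In hlh-30 (chrIV:4014793-4034951, minus strand) the pooled signals of the members were 74.4, 53.9, 49.97, 41.0, 34.9, 31.3, 29.8, 28.7, 24.2 and 21.3. They lay in introns 1, 2 and 3 of 11. Only 6 of these 10 overlapped no stronger pooled peak. A peak of the thresholded list with a signal of 103 stood in intron 3 as well, 15035 bp downstream of the 5′ end, and the member with a signal of 24.2 lay beside it. The interval of that member overlapped peaks of 43.2 in replicate 1 and 63.1 in replicate 2, the highest replicate values among the 10, although its pooled signal was the second lowest.

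Other genes with many members included 9 in hmr-1 on I, which encodes the classical cadherin, 7 in kin-1 on I, the catalytic subunit of protein kinase A, and 7 in tlk-1 on III, a Tousled-like kinase. A further 7 lay in egl-27 on II, which encodes a relative of the vertebrate MTA proteins. Several genes had 6 members, and those of them with most members per kb of open intron were C34B4.2, W05B5.1, daf-5, a Ski-related factor of the TGF-beta dauer pathway, and ppfr-1, a regulatory subunit of protein phosphatase 4. In tlk-1 all 7 members stood in introns 1 and 2, with pooled signals of 76.9, 72.6, 55.4, 50.4, 38.3, 37.8 and 29.5, and no summit of the thresholded list was present. In egl-27 the 7 signals were 65.6, 52.7, 49.9, 47.1, 47.0, 29.2 and 27.05, and a peak of the thresholded list at 104 lay 7785 bp downstream of the 5′ end. In hmr-1 the signals ran from 21.7 to 62.3, and 8 of 9 members overlapped no stronger peak, the most of any gene. In daf-5 the members at 20.2 and 20.0 overlapped replicate peaks of 53.9 and 69.6 in replicate 2, above the 52.8 that its strongest member had in that replicate.

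**Figure D5:**
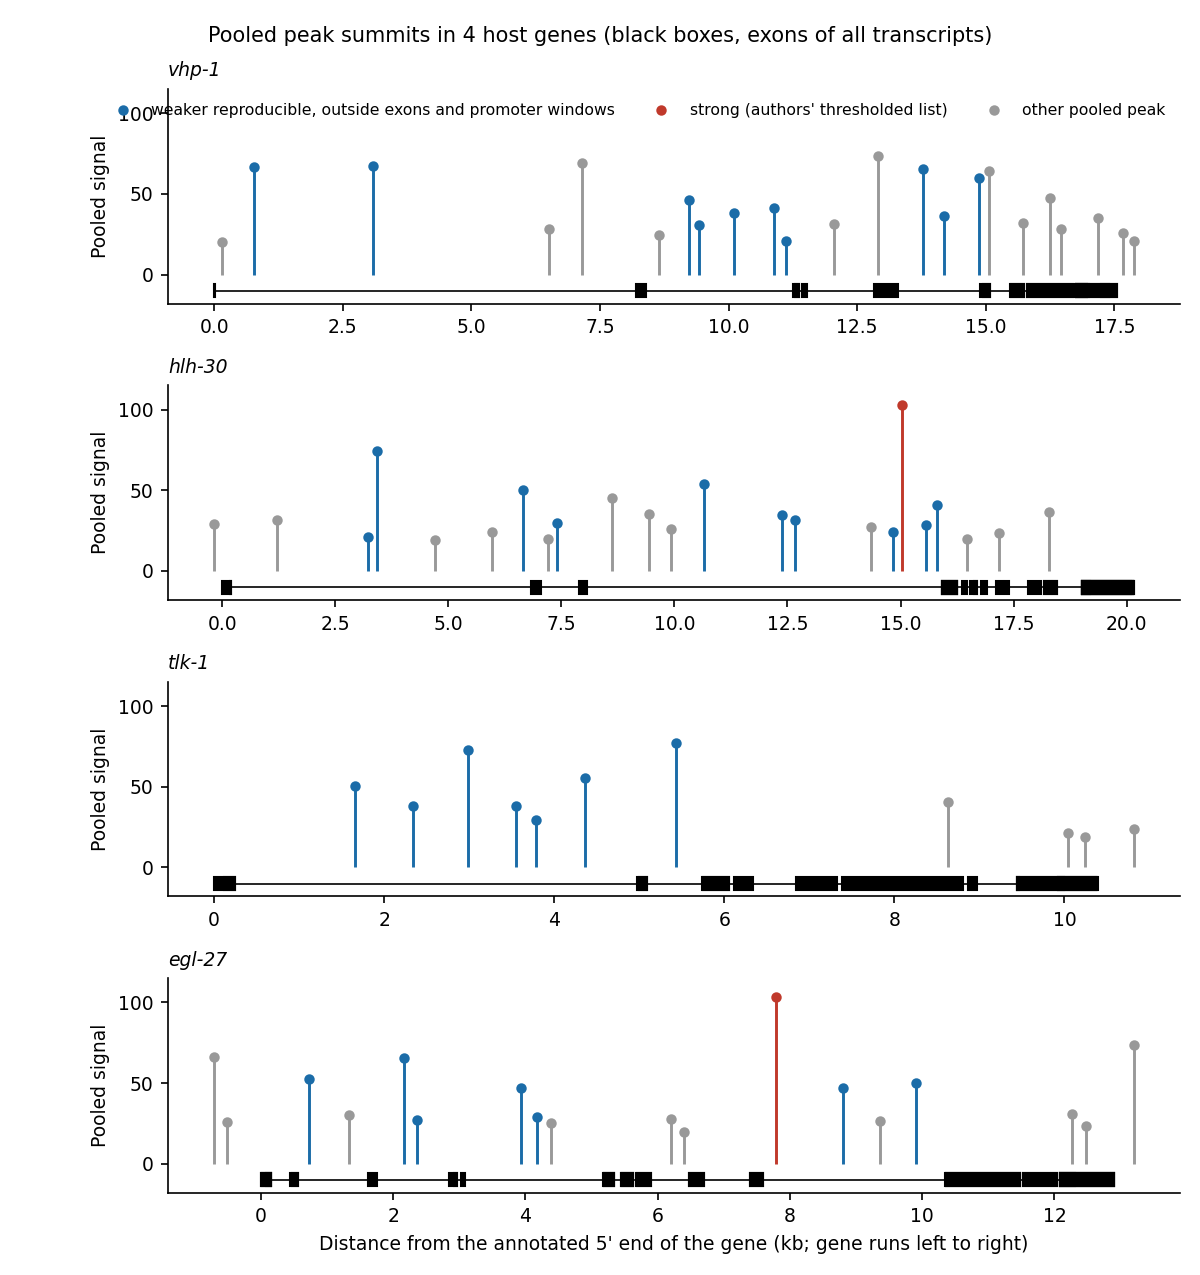
Pooled signal (vertical axes) of every pooled peak summit in vhp-1, hlh-30, tlk-1 and egl-27 and 1 kb to each side, against distance in kb from the annotated 5′ end (horizontal axes), with the weaker reproducible peaks in blue, peaks of the thresholded list in red, other pooled peaks in grey and exons as black boxes. The genes hold 10, 10, 7 and 7 members, and of the 4, hlh-30 and egl-27 have a summit of the thresholded list.

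The highest-ranked intron members lay in genes of mixed kinds. The signal in K04B12.2 on II was 78.8, with 42.2 in replicate 1 and 27.7 in replicate 2. In Y46E12A.3 on III, with telomere units, it was 78.7, with 38.8 in replicate 1 and 45.8 in replicate 2. In ell-1 on IV it was 78.6, with 20.0 and 60.03 in replicates 1 and 2. The others of the 10 highest were in Y38F1A.1, Y75B7AL.2, dab-1 (an adaptor protein of the Disabled family), fmil-1, a pseudogene listed as WBGene00005747, the chemoreceptor gene sri-54 and ckk-1 (a calmodulin-dependent kinase kinase), with signals from 77.5 to 78.3. Of these 10 members, 4 held tandem telomere units, namely those in Y46E12A.3, Y75B7AL.2, fmil-1 and sri-54.

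Gene lists drawn up for this tissue and factor were counted over autosomal genes with open intron sequence, and read against 5.64% of all genes and 51.0 members per Mb of open intron sequence. Synapse, axon guidance and axon growth genes have long introns, with a median of 5838 bp of open intron sequence against 689 over all genes. Across all genes, density was 56.3 per Mb at 5000 to 10000 bp of open intron sequence and 65.3 at 10000 bp or more. The 51.0 is thus not a like value for these long-intron genes. The synapse and axon genes held 83.8 members per Mb (59.0 to 116). They had the most hosts, 21 of 54 (38.9%, 95% interval 25.9 to 53.1). Examples were mig-10, which encodes a lamellipodin relative and held 6 members with signals from 26.0 to 56.8, unc-73, the worm Trio exchange factor with 5, and sax-7, an L1 adhesion molecule, and vab-1, the Eph receptor, with 3 each. Cell adhesion and matrix genes had 7 hosts of 40 (17.5%) and 77.0 members per Mb, with an interval of 49.4 to 114.6 that includes the 51.0 of all genes. Of their 24 members, 9 were in hmr-1, and vab-10, tln-1 and jac-1 held most of the others. Nuclear hormone receptor genes had 17 hosts of 243 (7.0%) and 84.1 members per Mb (55.4 to 122), led by nhr-34 with 4. Without members that overlap a stronger peak, the densities of these 3 lists were 70.2, 73.8 and 59.2 per Mb, against 41.6 over all genes. Those densities came from 31, 23 and 19 members, and no intervals were computed for them.

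Except for ribosomal protein genes, the next lists had densities below that of all genes, though several had a larger share of hosts. The 95% intervals of density included that of all genes for homeobox, RNA-binding, collagen, muscle, ligand-gated channel, chromatin and ribosomal protein genes. For these lists no difference from all genes can be read. The intervals of potassium channel genes (11.8 to 49.1), transmitter and neuropeptide receptors (3.56 to 33.5) and chemoreceptor genes (9.59 to 28.3) lay below it. Homeobox genes had 5 hosts of 70 (7.14%) and 48.3 members per Mb, including zfh-2 with 4 and the Hox gene mab-5 with 2. RNA-binding and splicing regulators had 4 hosts of 40 and 46.1 per Mb, and collagen genes 2 of 112 and 44.4 per Mb. Muscle genes (5 of 45, 11.1%) had 33.5 members per Mb, among them dys-1, the dystrophin gene, with 3, and ligand-gated channel genes (8 of 77, 10.4%) had 33.1. Chromatin regulators had 6 of 90 and 28.4 per Mb, potassium channel genes 8 of 52 (15.4%, 95% interval 6.88 to 28.1) and 25.8 per Mb, and receptors of transmitters and neuropeptides 2 of 77 and 13.1 per Mb. Chemoreceptor genes had 10 hosts of 1257 (0.796%) and 17.1 per Mb. The chemoreceptor gene with most members, str-81 on V, had 4, each with tandem telomere units, in an intron of 23951 bp. Ribosomal protein genes had 1 host of 37, whose 1 member in 4.18 kb of open intron sequence gave 239 per Mb (6.05 to 1332).

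Genes listed here as regulators of the mitochondrial unfolded protein response had 3 hosts of 21 (14.3%, 95% interval 3.05 to 36.3). The list had 7 members in 49.4 kb of open intron sequence. The hosts were ulp-4, which encodes a SUMO protease that acts on DVE-1, dlk-1, a MAP kinase kinase kinase, and zip-3, a bZIP factor of the response. Counting dlk-1, which held 3 of the 7 members, as a regulator of the response rests on the list alone. The members in intron 3 of ulp-4 had signals of 55.6, 47.9 and 42.9, and their intervals overlapped and met the same replicate 1 peak, of 21.7. In dlk-1 the signals were 63.4, 55.0 and 23.2, and in zip-3 the single value was 44.2. The density of the list, 142 members per Mb, had an interval of 56.9 to 292, which counts the overlapping ulp-4 calls as separate. Without members that overlap a stronger peak, 5 remained and the density was 101.2, for which no interval was computed. Of the chaperone genes induced in the response, hsp-60 had 1 member in intron 2, with a signal of 47.0 and with 17.4 in replicate 1 and 32.3 in replicate 2. The gene hsp-6, with 125 bp of open intron sequence, had no member within 5000 bp. Pooled summits that were not members did lie there, 6 within 5000 bp of hsp-6 and 1 in its span. A member with a signal of 47.6 lay 57 bp past the 3′ end of atfs-1, the gene for the response's main bZIP factor. The promoter window on the 5′ side of atfs-1 was closed to members by the rule. The gene ubl-5, with no member in its introns, had a member of 20.4 at 1094 bp. In unc-119, which is mutant in this strain, 2 members of 33.0 and 25.5 met the same replicate peaks. The gene dve-1 itself is on X, outside the autosomes, and had no pooled summit within 5000 bp.

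Of the 966 members between genes, 964 had an annotated gene on both sides. Of these, 564 (58.5%, 95% interval 55.3 to 61.6) lay between genes of the same orientation, against 53.7% of open intergenic windows, and 102 (10.6%, 8.71 to 12.7) between convergent genes, against 15.6%. Of the same 964, 523 members (54.3%, 51.0 to 57.4) lay 1000 to 3000 bp upstream of a flanking 5′ end, just outside the promoter window, against 41.0% of windows. A 3′ end lay within 500 bp for 183 members (19.0%) and 13.4% of windows. Few, 63 (6.54%), were over 5000 bp from both flanking genes, against 13.0% of windows. The strongest intergenic member, at 78.7, lay on V between srh-16 and frm-7, 2060 bp from frm-7, with 36.1 in replicate 1 and 44.3 in replicate 2. The next 4 stood between Y57G11B.6 and Y57G11B.2 (78.6), F29B9.12 and kin-36 (78.5), K04H8.3 and pes-7 (78.4), and F30H5.3 and T22F7.3 (77.6).

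Small non-coding RNA genes were near some members. A tRNA gene lay within 200 bp of 25 members (1.11%) and of 0.153% of the open bases, and a snoRNA gene of 22 members (0.973%) and 0.139% of the bases. Both shares were below those of the strong peaks, 4.81% and 6.54%. Genes of the ncRNA class lay that near 166 members (7.34%) and 2.53% of the bases, whereas piRNA genes did so for 35 members (1.55%) and 5.21% of the bases. Members also stood closer to summits of the thresholded list than the open sequence does: 523 of 2262 (23.1%, 95% interval 21.4 to 24.9) lay within 5000 bp of one, against 12.4% of open bases and 15.9% of the peaks not found in both replicates. Of the members, 89 overlapped an interval of that list, and such members can meet the overlap rule through the replicate peaks of the stronger peak. The comparison with peaks not found in both replicates was not matched for rank. A higher-ranked pooled peak overlapped 18.0% of members and 4.81% of those peaks, so the selection itself bears on this closeness. Another member lay within 1000 bp of 668 (29.5%), a count that includes overlapping calls: merging overlapping members left 2009 regions, and 472 members shared their strongest peak of both replicates with another. The median gap between neighbouring members was 16190 bp.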

How the data were processed

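ChIP-seq peak lists of 2 biological replicates of 1 group were used in the ce11 build. The authors called 1 list per replicate (11568 and 15750 peaks for replicates 1 and 2), 1 on the reads of both together and 1 thresholded by IDR, per the text descriptions deposited with them. Both replicates used 1 control alignment. Each peak carries a signal, the authors' enrichment value as deposited, used only within a list, apart from the correlation between replicates. Aligner, caller, IDR settings and handling of multiply mapping reads were not given in the sources used here. Lists in ce10 were not used.

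Summits were placed on Ensembl release 115 genes and on the RefSeq sequence of the same assembly, whose masking method is not stated. Open sequence means autosomal bases outside exons and promoter windows, tiled in windows of the same length as the summit windows, which reach 100 bp to each side of a summit. Shares of peak classes were compared with two-sided Fisher's exact tests, adjusted over 8 tests by Benjamini-Hochberg, with a threshold of 0.05. Intervals are exact Clopper-Pearson, conditional exact or Poisson 95% intervals over peaks or genes and cover counting error only. The code was tested on simulated data. Genes were named by rule: hosts of the 10 highest-ranked intron members, neighbours of the 5 highest-ranked intergenic members, the 10 genes with most members (ties broken by members per kb of open intron), up to 4 hosts per list, the 3 members nearest the rank limit on each side, and always hsp-60, hsp-6, atfs-1, ubl-5, unc-119 and dve-1. The spat-2 member is named for its printed sequence. The weakest member was chosen after its value was seen. The members, 14 gene lists (9 symbols matched no gene) and 8 motifs were chosen with earlier results of these data known. Computations ran in Python 3.11.15 with scipy 1.17.1, pandas 2.3.3, numpy 2.4.6 and, for plots, matplotlib 3.10.9.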

Additional observations from a re-analysis of the deposited data

How the results depend on the processing

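Of 111 repeated tests under 18 alternatives, 92 kept their direction and their side of the threshold, 13 lost their call and 6 changed direction. For members, the alternatives included 3 added after the data were seen: promoter windows at every transcript 5′ end, 1 peak per 10 kb, and no peaks that overlap a stronger one. No paired analysis was possible because there is only 1 group. Peak lists give no depth, so counting error over peaks is the only error given.

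The difference in repeat share from weaker promoter-window peaks was the least stable. Its odds ratio was 1.06 with windows of 500 bp upstream and 100 bp downstream, 1.15 with overlap of at least 50% of the peak, 1.14 with replicate summits within 100 bp, 1.07 at ranks up to 5000, 1.04 over the whole peak, 1.22 with 1 peak per 10 kb and 1.13 without peaks that overlap a stronger one, none past the threshold (adjusted p between 0.0515 and 0.647). It turned to 0.875 without telomere-like windows and 0.895 for any masked base. Against strong peaks it turned to 1.63 without telomere-like windows and to 1.46 (Fisher's exact test, adjusted p = 0.0219) for any masked base. Against peaks not found in both replicates, the repeat odds ratio was 0.984 at ranks up to 5000 and 0.856 by multi-copy 24-mers, the central one 1.13 at ranks up to 5000 and 1.15 with 1 peak per 10 kb (Fisher's exact test, adjusted p = 0.0515), and the intron one 0.837 at ranks up to 5000 and 0.917 with windows of 2000 bp upstream and 500 bp downstream, none past the threshold. The intron odds ratio against strong peaks, never called, was 1.18 without telomere-like windows. The cause of these changes was not tested.

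With overlap asked of 1 replicate, the members numbered 4140 to 5319 and their hosts 1575 to 1909. Across those 2 settings the intron odds ratio against strong peaks was 0.989 to 1.07, the central share 32.5% to 33.6%, the repeat share 21.8% to 25.6% and the intron share 58.6% to 60.2%. Members numbered 1391 with replicate summits within 100 bp, 1065 (465 hosts) at ranks up to 5000 and 1383 with 1 peak per 10 kb. Their intron share was 52.2% with narrow windows, 63.5% with wide ones and 51.8% with windows at every transcript 5′ end. Their central share was 37.9% without telomere-like windows and 52.0% for the central 50% of length. Their repeat share was 17.0% at ranks up to 5000, 14.3% without telomere-like windows, 91.1% for any masked base, 1.503% at 90% masked, 16.9% over the whole peak and 6.45% by multi-copy 24-mers.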
